A study of Drosophila melanogaster with 16 samples.

Results

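The 10 genes described here encode the laminins and other proteins of the basement membrane in Drosophila melanogaster, and were taken by name: wb, LanA, LanB1, LanB2, trol, Ndg, SPARC, vkg, Pxn and Ppn. All 10 were found among the 16727 genes of the deposited table, SPARC under its older name BM-40-SPARC. RNA had been sequenced from larval fat body, the storage and secretory organ of the larva, or from fat body dissected together with the developing ovaries, in female larvae at a stage labelled LL3/P0. The heterozygous animals carried dLmx1a delta1, an allele of a knock-out stock for the LIM homeodomain gene dLmx1a, over the TM3-GFP balancer, and animals without that balancer were taken as homozygous. There were 4 groups of 4 libraries, 1 for each tissue in each genotype. Only 1 of the 8 libraries titled homozygous has delta1 on both chromosomes in its genotype label, the others giving a second allele number that counts up from library to library, so these are called libraries labelled homozygous throughout.

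A basement membrane is a thin sheet of extracellular matrix under epithelia and around muscle, fat body and ovary. Laminin, a trimer of an alpha, a beta and a gamma chain, forms one network, and collagen IV, a trimer of alpha1 and alpha2 chains, forms another. Perlecan and nidogen bind these networks, SPARC binds collagen IV, peroxidasin cross-links collagen IV, and papilin is a further matrix glycoprotein. In the fly larva the fat body and the blood cells (hemocytes) secrete much of the collagen IV that other organs carry.

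The libraries held 19022106 to 32755588 reads counted on genes. The CG32105 (dLmx1a) transcript showed no detectable fall in the homozygous libraries (log2 difference 0.11 ± 0.75 with ovaries, limma standard error), and the extent of the deletion is not given here, so this gene does not check the labels. The marker w, lower in every library labelled homozygous in both tissues, followed the labels (log2 difference -6.04 ± 0.49 with ovaries, adjusted p = 4.55e-06). The 8 fat body markers took 50.7% to 59.8% of the normalised counts in all 16 libraries, so fat body RNA dominates also where ovaries are present. In such bulk samples fewer cells of a type and less RNA per cell cannot be told apart. Of the fat body libraries, heterozygous replicate 2 held 14 germline and ovarian somatic genes at 5.99% (median) of what libraries with ovaries held, against 1.39% to 2.92% in the other 7, and replicate 1 of those labelled homozygous had the fewest reads. Results that rest on either of these outlying libraries are given with and without both. Whether replicates are separate animals or pools is not stated, so the p-values here reflect only how libraries of a group vary.

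Per coding length, SPARC and trol stood highest and wb lowest. Levels were set as normalised counts per kb of the longest annotated coding sequence. In heterozygous fat body SPARC stood highest at 7388 ± 614 per kb (SD, n = 4), followed by trol, the perlecan gene, at 6131 ± 826 per kb. The laminin beta gene LanB1 (1242 ± 199.8 per kb), the alpha gene LanA (1075 ± 73.4), the gamma gene LanB2 (890.4 ± 43.9) and the collagen IV alpha2 gene vkg (838 ± 247) formed a middle group. Within it LanB1 overlapped LanA and LanB2 overlapped vkg across libraries. Below them lay the nidogen gene Ndg (74.8 ± 45.7 per kb) and the peroxidasin gene Pxn (46.6 ± 17.6), which overlapped. The papilin gene Ppn (4.37 ± 3.47) and the second laminin alpha gene wb (0.722 ± 0.438) were lowest and overlapped as well. With ovaries SPARC and trol overlapped in both genotypes, and Pxn, Ppn and Ndg lay close together at 126, 125 and 92.0 per kb in heterozygotes. wb remained lowest in all 4 groups.

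**Figure D1:**
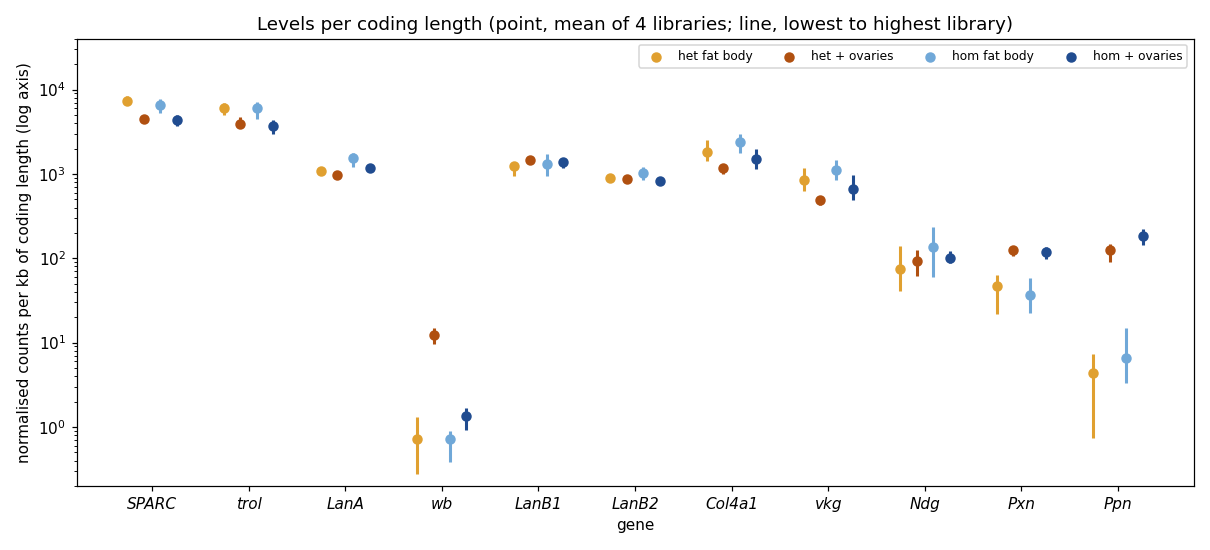
Normalised counts per kb of coding length (log axis) for the 10 genes and for Col4a1, the collagen IV alpha1 gene, in the 4 groups, with points for the mean of 4 libraries and lines from the lowest to the highest library. SPARC and trol lie highest, wb lowest, and wb reaches 12.2 per kb in heterozygous fat body with ovaries alone.

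wb (arm 2L, 14263027 to 14328262 of dm6, forward strand, FBgn0261563) encodes a laminin alpha chain of the alpha1,2 type, needed in the fly for adhesion of wing surfaces and for muscle attachment. In heterozygous fat body it had 3, 13, 5 and 7 reads, or 2.83, 13.3, 5.57 and 7.52 normalised counts. In heterozygous fat body with ovaries it stood at 96.5, 98.8, 153 and 144 normalised counts. All 4 libraries with ovaries lay above all 4 without, and the highest fat body library was the one with the most ovarian RNA. The difference was 4.03 ± 0.37 on the log2 scale (SE, n = 4 per group, limma adjusted p = 1.22e-06), and 4.34 without these outlying libraries.

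In libraries labelled homozygous wb stood at 9.18, 7.28, 3.90 and 8.98 normalised counts in fat body and at 16.2, 17.2, 11.7 and 9.42 with ovaries. The libraries with ovaries again lay above those without, by a small gap, and the log2 difference of 0.83 ± 0.37 did not pass the test (adjusted p = 0.101). It did pass without these outlying libraries (0.95, adjusted p = 0.0422) and with every library scaled to the same total (1.21, adjusted p = 0.0159). That scaling put the median of all genes at 0.37. wb stood 0.84 above this median, against 0.89 above the median of all genes before the scaling.

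Set against each other, the libraries with ovaries differed by genotype in wb: all 4 labelled homozygous, at 12 to 17 reads, lay below all 4 heterozygous ones, at 96 to 184 reads. The means were 13.6 ± 3.68 and 123 ± 29.6 normalised counts (SD, n = 4 per group, log2 difference -3.09 ± 0.37, adjusted p = 0.000314). It was the only 1 of the 10 members called in that comparison, in which 2.11% of the 7824 genes tested were called, and 1.19% were called lower. Over the 26 alternative settings that tested wb its difference ran from -3.21 to -2.77, with adjusted p at most 0.0023. In fat body alone wb showed no detectable difference between genotypes (log2 difference 0.11 ± 0.37, adjusted p = 0.907), at 3 to 13 reads a library. The change of the tissue difference with genotype was -3.20 ± 0.53 (adjusted p = 0.0478), the only 1 called lower (0.0128% of 7824) among 4 genes called in that contrast (0.0511%), the other 3 higher (0.0383%). That call is not firm, since it ended in 20 of the 25 alternative settings that tested wb, with adjusted p between 8.25e-05 and 0.175, among them the fit blocked on replicate number (adjusted p = 0.143) and the removal of any 1 of 14 single libraries. Without these outlying libraries it was -3.40 (adjusted p = 0.0415).

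Values of other genes of the ovary and of muscle stand beside this one. Of 8 ovarian somatic markers, 7 rose with ovaries in each genotype, beside 18.6% of all genes in heterozygotes and 19.8% in libraries labelled homozygous. Between genotypes with ovaries 1 of the 8 was called lower, the Hedgehog ligand gene hh (log2 difference -1.72 ± 0.36, adjusted p = 0.0234), and 1 was called higher, the adhesion gene Fas3 (1.60 ± 0.36, adjusted p = 0.0384). In that comparison 1.19% of all genes were called lower and 0.92% higher. Among muscle markers 1 of 11 tested was called lower there, the myosin light chain gene Mlc2 (-4.06 ± 0.49, adjusted p = 0.000323). The muscle list summed to 1831 to 2760 normalised counts in heterozygotes and 2119 to 2847 in libraries labelled homozygous, with the myosin heavy chain gene Mhc at means of 20.3 and 15.5. Most of that sum was bt, the projectin gene. Without bt it was 541 to 597 in heterozygotes and 155 to 255 in libraries labelled homozygous, of which Mlc2 had means of 399 and 26.2. With Mlc2 left out as well, a choice made with its call known, the sum was 129 to 193 and 140.4 to 207. The part of muscle RNA in the wb result was not tested. Mlc2 was lower also in fat body (-3.78 ± 0.49), where wb had few reads in either genotype.

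**Figure D2:**
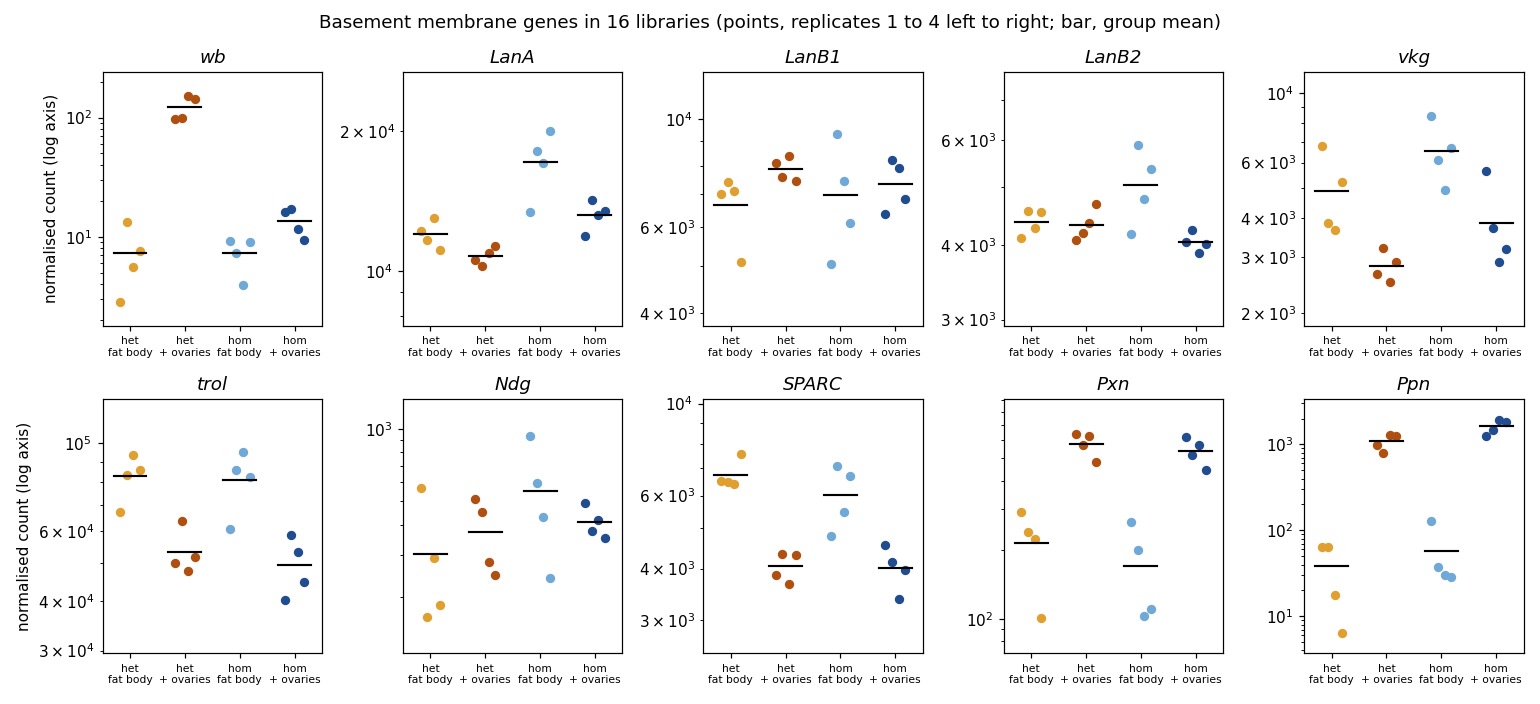
Normalised counts (log axes, which differ between panels) of the 10 genes in the 16 libraries, with points for libraries, replicates 1 to 4 from left to right, and bars for group means. wb is high in heterozygous libraries with ovaries alone (96.5 to 153), Pxn and Ppn are high with ovaries in both genotypes, and trol and SPARC are lower with ovaries.

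The genes whose profile over the 16 libraries lay nearest to that of wb were form3, CG34347, wake, ptc and stumps, in that order. Nearness was the root mean square distance between mean-centred log2 profiles, 0.86 for form3 and 1.02 for stumps, among 6577 genes whose mean reached 50 normalised counts. form3, a formin gene, had group means of 18.3 in heterozygous fat body, 131 with ovaries, 22.2 in fat body labelled homozygous and 53.2 with ovaries labelled homozygous. For ptc, the Hedgehog receptor gene, the corresponding means were 70.6, 526, 55.6 and 329, and for stumps, an adaptor of FGF receptor signalling, 37.5, 586, 33.7 and 304. For CG34347 they were 18.5, 493, 22.6 and 117, and for wake 19.0, 194, 24.1 and 106. All 5 are high with ovaries and lower there in libraries labelled homozygous, which is what likeness to wb selects. No member of the 10 came near: the nearest was Pxn at 1.29.

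LanA (arm 3L, 6203831 to 6218022), the gene of the main laminin alpha chain, supplied almost all alpha chain RNA. Per coding length wb made up 0.0682% ± 0.0431 of alpha chain RNA in heterozygous fat body, 1.24% ± 0.254 with ovaries, 0.0485% ± 0.0207 in fat body labelled homozygous and 0.114% ± 0.0329 with ovaries labelled homozygous (SD, n = 4 each). With ovaries the share is over both tissues together. LanA stood at 12161, 11656, 13009 and 11081 normalised counts in heterozygous fat body and at 13381, 18095, 17109 and 20000 in fat body labelled homozygous. The groups did not overlap, though the lowest library labelled homozygous, replicate 1, lay close to the highest heterozygous one. The log2 difference was 0.50 ± 0.11 (adjusted p = 0.0158), and 0.61 without these outlying libraries (adjusted p = 0.00399). LanA was the 1 member called between genotypes in fat body, where 5.39% of the 7824 genes were called and 2.29% were called higher. The difference ran from 0.40 to 0.62 over 27 alternative settings. The call ended when the fit held these 8 libraries alone (adjusted p = 0.158) and without heterozygous replicate 4 (0.47, adjusted p = 0.0588).

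With ovaries LanA was at 10570, 10221, 10909 and 11291 in heterozygotes and at 11909, 14226, 13180 and 13466 in libraries labelled homozygous. The groups again did not overlap, as for 12.1% of all tested genes, but the log2 difference of 0.29 ± 0.11 did not pass the test (adjusted p = 0.227). Against fat body, LanA in libraries labelled homozygous was lower with ovaries (-0.37 ± 0.11, adjusted p = 0.0189), a difference that turned to 0.06 (adjusted p = 0.662) when libraries were scaled to the same total. That call ended also with these 8 libraries alone in the fit (adjusted p = 0.0992) and without fat body replicate 2 (0.0525), fat body replicate 4 (0.0605) or replicate 1 with ovaries (0.0578) of those labelled homozygous.

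LanB1 (arm 2L, 7811438 to 7820771) and LanB2 (arm 3L, 9614914 to 9623980), the single beta and gamma chain genes of the fly, passed no test between genotypes. LanB1 ran from 5044 to 9316 normalised counts over all 16 libraries and LanB2 from 3888 to 5889. Their log2 differences between genotypes lay from -0.11 to 0.20. LanB2 was called lower with ovaries in libraries labelled homozygous (-0.31 ± 0.09, adjusted p = 0.0208), where its groups overlapped, and at equal totals it stood at 0.12 (adjusted p = 0.314). The call ended with these 8 libraries alone (adjusted p = 0.0976) and without fat body replicate 2 (0.0705), fat body replicate 4 (0.0573) or replicate 3 with ovaries (0.0574) of those labelled homozygous. In heterozygotes LanB1 and LanB2 passed no test in the deposited units (0.26 ± 0.17 and -0.02 ± 0.09). At equal totals both were called higher there (0.65, adjusted p = 0.00381, and 0.37, adjusted p = 0.00519), and LanB1 also in libraries labelled homozygous (0.53, adjusted p = 0.0120). The median of all genes was then 0.34 in heterozygotes and 0.37 in libraries labelled homozygous. Above that median LanB1 stood at 0.31 and 0.16, and LanB2 in heterozygotes at only 0.03.

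Ratios within a library do not depend on how libraries are scaled. The alpha to gamma chain ratio per coding length was 1.08 to 1.34 in heterozygous fat body and 1.36 to 1.64 in fat body labelled homozygous. With ovaries it was 1.08 to 1.16 in heterozygotes and 1.298 to 1.498 in libraries labelled homozygous, so the genotypes did not overlap in either tissue. In fat body the gap was small, from 1.343 to 1.357. The alpha to beta ratio overlapped in fat body, at 0.756 to 1.05 in heterozygotes and 0.936 to 1.58 in libraries labelled homozygous. With ovaries the alpha to beta ratio did not overlap, at 0.633 to 0.739 and 0.801 to 0.950. The beta to gamma ratio did overlap between genotypes, at 1.46 to 1.83 and 1.44 to 1.87 with ovaries. These ratios are descriptions, without a test, and how often ratios of other genes separate the genotypes was not tested. LanA and LanB2 were also each other's nearest member over the 16 libraries, at a distance of 0.21, as were trol and SPARC at 0.23. LanB1 lay nearest to LanB2 (0.26), vkg to SPARC (0.40), Ndg to LanA (0.66), Pxn to LanB1 (0.86) and Ppn to Pxn (1.90). This distance is small for any pair of genes that vary little, so nearness need not mean varying together. LanB2 spanned only 1.51-fold from its lowest to its highest library.

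vkg (arm 2L, 5012144 to 5028191) lies head to head with Col4a1, the gene of the collagen IV alpha1 chain, with 1417 bases between them. vkg stood at 6782, 3871, 3673 and 5190 normalised counts in heterozygous fat body and at 2655, 3216, 2511 and 2907 with ovaries. The groups did not overlap, and vkg was lower with ovaries (log2 difference -0.75 ± 0.23, adjusted p = 0.0229). With the homozygous label it was 8440, 6135, 4896 and 6685 in fat body and 5656, 3722, 2897 and 3181 with ovaries (-0.78 ± 0.23, adjusted p = 0.0164), where the groups overlapped through replicate 1 with ovaries. Removal of 1 library ended the vkg call in heterozygotes for fat body replicates 1 (adjusted p = 0.0623) and 4 (0.0608) and for replicates 1 (0.0552) and 3 (0.0656) with ovaries. In those labelled homozygous it ended without replicate 3 with ovaries (adjusted p = 0.0577). Col4a1 was called lower with ovaries in both genotypes, at -0.63 ± 0.21 (adjusted p = 0.0333) and -0.68 ± 0.21 (adjusted p = 0.0198). Per coding length Col4a1 stood at 2.05 to 2.71 times vkg over all 16 libraries. The genotypes did not differ detectably in vkg (0.44 ± 0.23 in fat body, adjusted p = 0.312, and 0.41 ± 0.23 with ovaries, adjusted p = 0.487).

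trol (X chromosome, 2470460 to 2545427), with 25 annotated transcripts, had the most reads of the 10. It stood at 67201, 83471, 93662 and 85955 normalised counts in heterozygous fat body and at 49903, 63601, 47775 and 51825 with ovaries, without overlap (log2 difference -0.63 ± 0.17, adjusted p = 0.0108). Those labelled homozygous had 60774 to 95342 in fat body and 40144 to 58898 with ovaries (-0.71 ± 0.17, adjusted p = 0.00424). SPARC (arm 3R, 26869238 to 26871995), the nearest member to trol, was at 6502, 6461, 6413 and 7577 against 3863, 4334, 3671 and 4316 with ovaries in heterozygotes (-0.74 ± 0.13, adjusted p = 0.000417). The difference was -0.57 ± 0.13 (adjusted p = 0.00271) in libraries labelled homozygous. Neither gene differed detectably between genotypes (log2 differences from -0.18 to -0.02).

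These falls are in units of the deposited normalisation, which sets the median of all tested genes at -0.05 between tissues. Scaled to the same total, that median was 0.34 in heterozygotes and 0.37 in libraries labelled homozygous. The differences then came to -0.24 and -0.28 for trol, -0.36 and -0.35 for vkg and -0.14 for SPARC in libraries labelled homozygous, and none of these 5 passed the test. SPARC in heterozygotes still did (-0.35, adjusted p = 0.027). The fat body markers apolpp and srp fell by a like amount in heterozygotes (-0.62 ± 0.19 and -0.46 ± 0.11), and whether the matrix genes follow the share of fat body RNA was not tested.

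**Figure D3:**
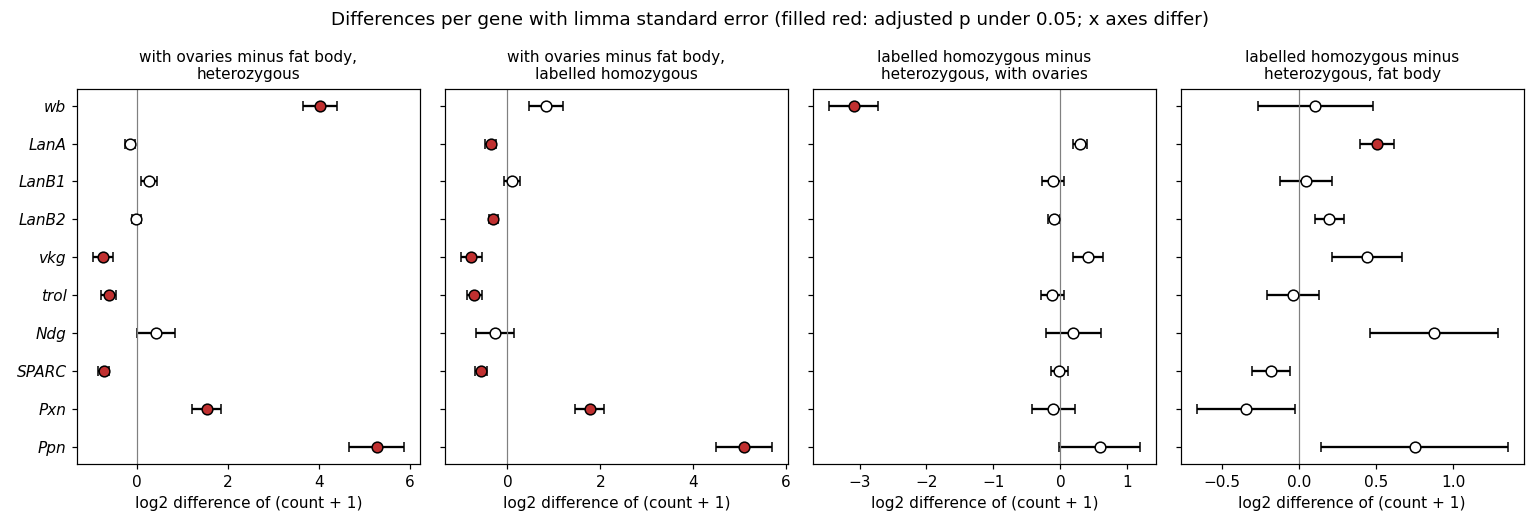
Log2 differences of normalised counts plus 1 with the limma standard error for the 10 genes in 4 comparisons (x axes differ), red where the adjusted p lies under 0.05. With ovaries wb, Pxn and Ppn are higher in heterozygotes, and wb (-3.09) and LanA in fat body (0.50) are the members called between genotypes.

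Pxn and Ppn rose with ovaries in both genotypes. Ppn (arm 3R, 28520665 to 28540324), a proteoglycan-like glycoprotein with protease inhibitor domains, stood at 63.2, 64.5, 17.8 and 6.45 normalised counts in heterozygous fat body and at 994, 787, 1291 and 1268 with ovaries. Every library with ovaries was above every one without, and the log2 difference was 5.26 ± 0.60 (adjusted p = 8.67e-06). Labelled homozygous, the libraries went from 130, 37.6, 30.2 and 28.9 to 1257, 1464, 1948 and 1809 (5.10 ± 0.60, adjusted p = 1.06e-05). Among libraries with ovaries those labelled homozygous ranged higher, at a mean of 1620 ± 316 against 1085 ± 240.2, but overlapped the others and did not pass the test (0.58 ± 0.60, adjusted p = 0.776, and adjusted p = 0.153 with those 8 libraries alone in the fit).

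Pxn (arm 3L, 2601455 to 2630064) stood at 291, 238, 223 and 101 normalised counts in heterozygous fat body and at 636, 572, 626 and 483 with ovaries (1.53 ± 0.32, adjusted p = 0.00209). Pxn in those labelled homozygous was 265, 199, 103 and 110 in fat body and 620, 519, 573 and 445 with ovaries (1.77 ± 0.32, adjusted p = 0.000565). The tissues did not overlap in either genotype. The genotypes did overlap, with log2 differences of -0.11 ± 0.32 with ovaries and -0.35 ± 0.32 in fat body.

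Both genes are also known from hemocytes, which make matrix in the fly. Of 9 hemocyte markers tested, none rose with ovaries by limma, edgeR or DESeq2 in either genotype. By limma 18.6% of all genes rose in heterozygotes and 19.8% in libraries labelled homozygous. crq, a scavenger receptor gene, was lower in heterozygotes (-0.46 ± 0.15, adjusted p = 0.0326). Hml, the hemolectin gene, stood at 156 ± 83.1 in heterozygous fat body and 167 ± 120.3 with ovaries (-0.08 ± 0.59). The summed level of the 12 listed markers was 3269 to 7033 normalised counts in heterozygous fat body and 2877 to 3817 with ovaries. In libraries labelled homozygous it was 2074 to 10960 in fat body and 1888 to 6264 with ovaries. Nplp2 carried much of this spread, except in heterozygotes with ovaries, where the range was wider without it. Without Nplp2 the sum was 1661 to 1952 in heterozygous fat body and 1102 to 2479 with ovaries. In libraries labelled homozygous it was then 1447 to 1989 and 1079 to 2313. In every library the markers NimC4 and atilla stood below 3 normalised counts. The part of hemocytes in the Pxn and Ppn values was not tested.

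In all, 3 of the 10 members were called higher and 3 lower with ovaries in heterozygotes, where 29.3% of the 7824 genes tested were called, 18.6% higher and 10.7% lower. In libraries labelled homozygous 2 were called higher and 5 lower, where 33.0% of all genes were called, 19.8% higher and 13.2% lower. The tissues did not overlap for 7 members in heterozygotes (32.9% of all genes) and for 5 in libraries labelled homozygous (27.0%). The genotypes did not overlap for 2 members with ovaries (12.1% of all genes), wb and LanA, and for 1 in fat body (9.55%), LanA. Between genotypes with ovaries 0 members were called higher (0.92% of all genes). At an unadjusted p under 0.05 LanA was higher and wb lower, where 1054 of the 7824 genes passed in either direction. In fat body 0 were called lower (3.11% of all genes), also by edgeR and DESeq2. At an unadjusted p under 0.05 0 were lower there, where 1512 genes passed in either direction. The median log2 difference between tissues over the 10 was 0.12 in heterozygotes and -0.29 in libraries labelled homozygous, beside -0.05 for all genes in both. At equal totals 5 were higher and 1 lower in heterozygotes, and 4 and 0 in libraries labelled homozygous. The median of all genes was then 0.34 and 0.37, and 3496 genes were called in heterozygotes in either direction.

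Ndg (arm 2R, 10313891 to 10322104), the nidogen gene, varied widely between replicates. It stood at 568, 166, 292 and 186 normalised counts in heterozygous fat body and at 510, 454, 279 and 248 with ovaries. Those labelled homozygous had 941, 600, 432 and 241 in fat body and 491, 378, 420 and 352 with ovaries. Replicate 1 was the highest of its group in all 4 groups, as it was for Pxn and for 9.02% of all tested genes. For vkg and Col4a1 that held in 3 of the 4 groups, as for 22.8% of all genes in at least 3. Of the 12 hemocyte markers, 6 were highest in replicate 1 in 3 of the 4 groups (Hml, Sr-CI, PPO1, PPO2, lz and Nplp2), Hml at 375 and 384 in the replicates 1 labelled homozygous. The other 6, NimC4 and atilla among them, were highest there in at most 2 groups, and crq was lowest in replicate 1 in all 4. Only 9 of the 12 reached the mean that the share of all genes rests on. In fat body labelled homozygous 1 of the 12 had 0 reads in every library, so its order there is arbitrary. The part of hemocytes in the Ndg and vkg values was not tested.

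Ndg passed no test between tissues or genotypes. In fat body its log2 difference between genotypes was 0.88 ± 0.41 (adjusted p = 0.262), but blocking on replicate number gave a call (adjusted p = 0.0418). Without these outlying libraries, which include replicate 1 labelled homozygous, it was 0.34 (adjusted p = 0.717).

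**Figure D4:**
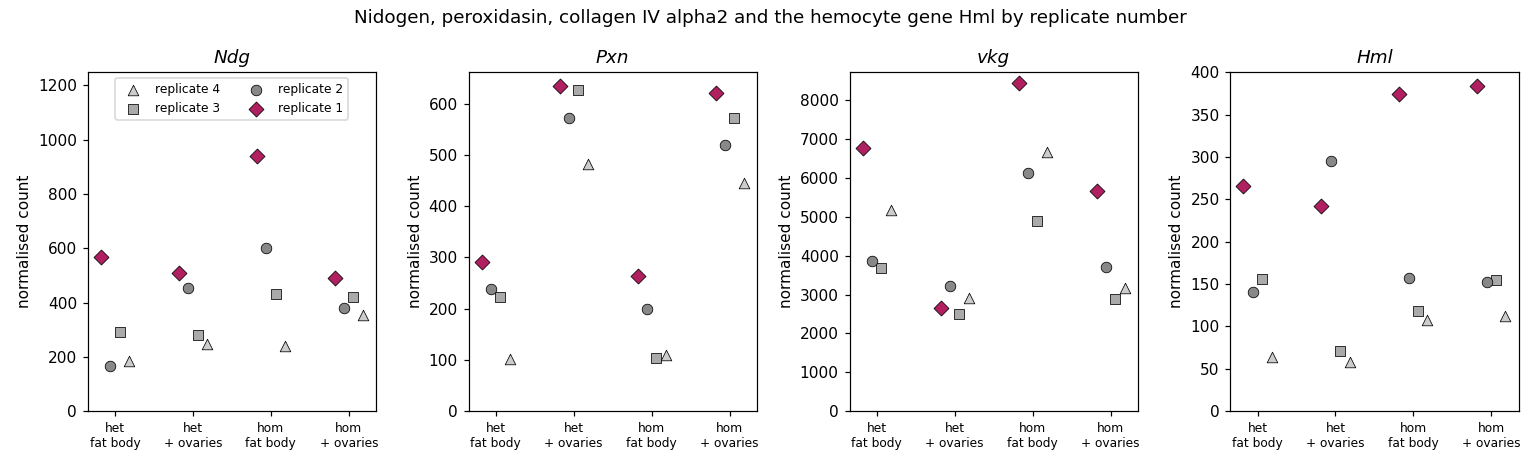
Normalised counts of Ndg, Pxn, vkg and the hemocyte marker Hml in the 4 groups, with each replicate number as its own symbol and axes starting at 0. Replicate 1 (red diamonds) is the highest of its group for Ndg and Pxn in all 4 groups and for vkg and Hml in 3 of them.

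Further genes of the same matrix, its secretion and its receptors were read from 3 lists. Of 9 other matrix genes tested, 1 rose and 3 fell with ovaries in heterozygotes, where 18.6% of all genes rose and 10.7% fell. The netrin gene NetA, related to laminin in sequence, rose from 6.03 ± 5.23 to 221 ± 36.4 normalised counts (5.30 ± 0.42, adjusted p = 4.04e-07). Its paralogue NetB fell (-1.15 ± 0.37, adjusted p = 0.0314), with Col4a1 and the integrin ligand gene Tig (-0.58 ± 0.17, adjusted p = 0.0189). In libraries labelled homozygous NetA rose (5.20 ± 0.42), and Col4a1 and Tig fell, where 19.8% of all genes rose and 13.2% fell. With a block on replicate number 1 rose and 6 fell in heterozygotes, where 3531 of the 7824 genes were called in either direction. In libraries labelled homozygous 2 rose and 5 fell with the block. Over the 27 alternative settings 1757 to 3759 of all genes were called there. At equal totals 0 of the 9 fell in limma in either genotype and NetA still rose, with 1 and 3 higher. The median of all genes was then 0.34 in heterozygotes and 0.37 in libraries labelled homozygous.

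Of 12 genes for collagen processing and matrix secretion, 0 rose and 6 fell with ovaries in heterozygotes. In libraries labelled homozygous 0 rose and 7 fell. Of all genes 18.6% rose and 10.7% fell in heterozygotes, and 19.8% and 13.2% in libraries labelled homozygous. With a block on replicate number 11 and 10 fell, where 3531 of 7824 genes were called in heterozygotes in either direction. In libraries labelled homozygous 1757 to 3759 genes were called over the 27 alternative settings. By DESeq2 8 and 8 fell, where 2639 and 2919 genes were called in either direction. Among those that fell in heterozygotes were Tango1, which loads collagen at endoplasmic reticulum exits (-0.29 ± 0.06, adjusted p = 0.00246), the coat protein gene Sec23 (-0.40 ± 0.09, adjusted p = 0.0033) and the prolyl hydroxylase gene PH4alphaEFB (-0.47 ± 0.14, adjusted p = 0.0183). At equal totals none of the 12 fell in either genotype by limma, and the list's median went from -0.34 to 0.05 in heterozygotes. The median of all genes went from -0.05 to 0.34 there.

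In the fat body alone 4 of these 12 genes were called higher in libraries labelled homozygous, and 0 lower. Of all genes 2.29% were called higher there and 3.11% lower. edgeR, DESeq2, TMM scaling and equal totals each called 1 lower, exu, and the fit without these outlying libraries called Plod lower. The 4 called higher were Tango1 (0.32 ± 0.06, adjusted p = 0.00854), Sec24CD (0.57 ± 0.12, adjusted p = 0.0123), the p24 cargo receptor gene loj (0.46 ± 0.10, adjusted p = 0.021) and Sec23 (0.36 ± 0.09, adjusted p = 0.030). The list's median of 0.12 lay near the 0.00 of all genes, and at equal totals 1 was higher (Sec24CD, 0.46, adjusted p = 0.0373). With ovaries loj was the 1 gene of the list called (0.46 ± 0.10, adjusted p = 0.039), where 2.11% of all genes were called. With edgeR, TMM scaling or equal totals loj was not called. With a block on replicate number 5 rose and 2 fell in fat body, and 4 rose and 1 fell with ovaries. The block called 1178 of 7824 genes in fat body and 660 with ovaries.

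Of 4 laminin receptor genes tested, 3 rose with ovaries in heterozygotes and 2 in libraries labelled homozygous, where 18.6% and 19.8% of all genes rose. The 3 in heterozygotes were the dystroglycan gene Dg (1.61 ± 0.18, adjusted p = 8.10e-06) and the integrin alpha genes if (1.498 ± 0.50, adjusted p = 0.0361) and mew (1.04 ± 0.32, adjusted p = 0.0238). Dg and mew rose also in libraries labelled homozygous (1.62 ± 0.18 and 0.95 ± 0.32). For mys, the integrin beta gene, the differences were -0.06 ± 0.10 and -0.08 ± 0.10. At equal totals all 4 rose in both genotypes, mys included, where the median of all genes stood at 0.34 and 0.37. In that setting 3496 of the 7824 genes were called in heterozygotes in either direction. Between genotypes none of the 4 was called in either tissue by limma, edgeR or DESeq2.

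How strands were handled in the counting is not given, so reads of overlapping genes may be shared. CG34222 on the opposite strand covers 3.28% of the exonic bases of Ndg, and CG16986 covers 1.38% of those of Pxn. The protein-coding gene CG32971 lies within an intron of wb and shares 0 exonic bases with it.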

How the data were processed

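Per the submitters' processing notes the reads went through Trimmomatic 0.36, STAR 2.5.2b on the dm6 genome and featureCounts (Subread 1.5.0p3). Annotation, strand setting and treatment of reads with several hits were not given in the sources used here. The deposited table holds a signal per gene and library, gene counts divided by a size factor of the library by the authors, and its name gives DESeq2 as the tool. Divided by what 1 read is worth, all values above 0 (100%) came out whole within 1e-06, so whole reads were recovered, and DESeq2 size factors computed on them equalled those deposited.

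Genes whose mean reached 10 normalised counts were kept (7824, all 10 members among them). Log2 of the value plus 1 was fitted with limma 3.58.1 in R 4.3.3, 1 mean per group over 16 libraries, with intensity trend and moderated variances. The contrasts were tested 2-sided: tissue within each genotype, genotype within each tissue, and the difference of the tissue contrasts. Adjustment (Benjamini-Hochberg) ran over all kept genes with a threshold of 0.05. A fold on this scale understates changes of low genes. edgeR 4.0.16 (quasi-likelihood) and DESeq2 1.42.0 on recovered reads were alternatives. The procedure was tested on simulated counts.

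The 10 members and the lists were chosen with earlier results of these data known. Named genes are all members, called genes of each list (up to 4 per direction, some of which the text leaves out), the 5 genes nearest wb, the nearest member of each member, and label checks. hh, Fas3, Mlc2, crq, Hml, apolpp and srp come from the marker lists. Coordinates and lengths came from Ensembl release 115 (BDGP6, the assembly dm6 names). Fbln and Strat were not matched.

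Same-number libraries deviated together between genotypes (correlations 0.173 to 0.676 in both tissues) and between tissues in libraries labelled homozygous (0.198 to 0.610). The number was therefore taken to pair those libraries. In the heterozygous tissue contrast the correlations were positive but ranged lower (0.015 to 0.284), so pairing is less clear there. The main test ignores this pairing, and the fit blocked on replicate number takes it into account. Between genotypes that fit called 660 genes with ovaries and 1178 in fat body, against 165 and 422 in the main test.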

Additional observations from a re-analysis of the deposited data

Results flagged for a closer look

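Of 40 gene and group combinations tested, 2 held a library far from the other 3 of its group, about as many as chance gives at 1 in 20. Ppn in fat body labelled homozygous stood at 130 normalised counts in replicate 1 against 28.9 to 37.6 in the others. SPARC in heterozygous fat body stood at 7577 in replicate 4 against 6413 to 6502. The rise of wb with ovaries differed between the genotypes by -3.20 on the log2 scale, by the test of the difference itself (limma adjusted p = 0.0478), a call that ended in 20 of 25 alternative settings, the replicate block among them (adjusted p = 0.143).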

How the results depend on the processing

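Depth limits wb in fat body, at 3 to 13 reads a library, and the level of Ppn there. Scaling changed several tissue calls: equal totals moved the median of all genes from -0.05 to 0.34 and 0.37, and gave 5 members higher and 1 lower in heterozygotes (3496 genes called, 2295 in the deposited units) and 4 higher and 0 lower in libraries labelled homozygous. It turned LanA to 0.23 and 0.065, LanB2 to 0.37 and 0.12, Ndg in libraries labelled homozygous to 0.16, LanB1 between genotypes in fat body to -0.061 and the interaction of vkg to 0.011. The cause was not tested.

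With the replicate number as a block 3531 genes were called between tissues in heterozygotes (2295 without it). Between genotypes 660 were called with ovaries and 1178 in fat body (165 and 422 without it), and in fat body 2 members were higher. The interaction called 0 genes and 0 members. Beside the calls named in the text the block changed no other call of a member. With the compared libraries alone 3 members were lower with ovaries in libraries labelled homozygous, and in fat body 0 members and 76 genes were called between genotypes. DESeq2 called 416 and 746 genes between genotypes and 20 in the interaction (4 in limma, 182 at an unadjusted p under 0.05), and edgeR 155, 357 and 4. With a mean of at least 50, wb was not tested and 0 members were lower with ovaries, nor was any in the interaction, which called 0 genes then, 0 with a pseudocount of 0.5, 1 with no filter and 0 at equal totals. The interaction of wb was not called in these nor with TMM scaling or edgeR (0 members).

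Without the 2 fat body libraries that stood apart 264 genes were called between genotypes with ovaries, and values near 0 turned: LanB2 to 0.0022 in heterozygotes, LanB1 to -0.041 and Ndg to 0.038 in libraries labelled homozygous, trol to 0.10 between genotypes in fat body and the interaction of vkg to 0.20. edgeR and DESeq2 turned wb in fat body to -0.025 and -0.013, and the interactions of vkg to 0.055 and 0.027 and of Ppn to 0.098 and 0.012. By exonic length, an alternative chosen after seeing the data, wb made up 0.948% of alpha chain RNA in heterozygotes with ovaries.

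Leaving out 1 library at a time gave 1689 to 2741 and 2072 to 3316 genes called between tissues, with 3 to 3 and 2 to 2 members higher and 2 to 3 and 3 to 5 lower. Between genotypes it gave 60 to 264 genes and 1 to 1 member lower with ovaries, and 201 to 489 genes and 0 to 1 member higher in fat body. The interaction called 0 to 7 genes and 0 to 1 member. Values that changed sign were LanB2 in heterozygotes (-0.057 to 0.010), LanB1 (-0.041 to 0.25) and Ndg (-0.62 to 0.038) in libraries labelled homozygous, and SPARC between genotypes with ovaries (-0.081 to 0.062). In fat body they were wb (-0.21 to 0.42), trol (-0.13 to 0.095) and LanB1 (-0.11 to 0.19), and in the interaction trol (-0.21 to 0.012), vkg (-0.23 to 0.10) and Ppn (-0.58 to 0.47).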
